A study of Mus musculus and Homo sapiens with 10 samples.

Results

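The regions described here are places where trimethylation of histone H3 at lysine 4 (H3K4me3) was called lower after Cbx8 knockdown in mouse MMTV-Myc cells, and where another such region lay close by. From the authors' list of 701 lower H3K4me3 regions, those with another region of the list on the same chromosome at a gap of at most 200 kb were kept. The rule took 254 of the 701 regions, or 36.2%. All 8 deposited lists of changed regions, mouse and human, held 4818 regions. Among these were 1241 lower and 2611 higher H3K4me3 regions of human MDA-MB-231-Luc cells after CBX8 knockdown. The other 447 of the 701 lower mouse regions are called isolated. Neighbouring regions at gaps of at most 200 kb were joined into loci, which gave 96 loci of 2 to 9 regions.

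The data came from chromatin immunoprecipitation followed by sequencing of mononucleosomes released with micrococcal nuclease. MMTV-Myc is named in the labels as a cell line, and the name is used for mouse mammary tumour cells in which the mouse mammary tumour virus promoter drives a Myc transgene. The knockdown cells carried a lentiviral hairpin against Cbx8 (shCbx8, labelled as Cbx8 knockdown), and the control cells carried a scrambled hairpin (shScr, labelled as wild type). Both were MMTV-Myc cells under puromycin selection, so both carry the Myc background and the selection. The labels give no clone, hairpin sequence or knockdown level. Each antibody had 1 library per hairpin, so no difference has a replicate check and none was tested between conditions.

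Cbx8 is a chromodomain subunit of Polycomb repressive complex PRC1, and the title of the study pairs it with Wdr5, a shared core subunit of the complexes that methylate histone H3 at lysine 4. H3K4me3 gathers in narrow stretches at active and poised promoters. Acetylation of lysine 27 (H3K27ac) marks active promoters and enhancers. Trimethylation of the same residue (H3K27me3) is laid down by the Polycomb complex PRC2 and is bound by Cbx chromodomains.

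The deposited lists give a chromosome, a start and an end in the mouse assembly mm9, with no read count, fold or p-value per region. Depth and the size of each change are therefore unknown, and the lists do not tell whether other places stayed the same. The number of places tested for a change was not stated in the sources used here. The gene table at hand describes another assembly, GRCm38.p6, so regions were not tied to genes, and their sequences are not printed here. Because the lower list itself chose the clustered regions, their number, spacing and length are a description.

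The largest locus held 9 lower H3K4me3 regions within 626.8 kb of chromosome 10 (79166751 to 79793550). Its regions fell into smaller groups. The first group held regions of 2.95 kb (79166751 to 79169700), 3.5 kb (79227551 to 79231050) and 1.8 kb (79255701 to 79257500). After a gap of 130.6 kb came regions of 3.15 kb (79388101 to 79391250) and 2.2 kb (79422201 to 79424400). The widest gap of the locus, 176.55 kb, separated these from regions of 1.95 kb (79600951 to 79602900) and 4.3 kb (79620851 to 79625150). The last pair held 5.45 kb (79781801 to 79787250), the longest of the locus, and 1.65 kb (79791901 to 79793550), with 4.65 kb between them. The 9 regions covered 26.95 kb, or 4.3% of the span, the highest summed length of the 96 loci.

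The 2 loci of 6 regions on chromosome 7 differed in spacing. The locus near the end of the listed regions (148246501 to 148408500) packed its 6 regions into 162.0 kb, with a median gap of 17.25 kb, and 7.5% of its span lay inside them. The locus at 19542201 to 20044950 spread its 6 regions over 502.75 kb with a median gap of 106.0 kb, and 3.02% of its span lay inside them. Its longest region had 4.25 kb (19892001 to 19896250). The next nearest regions lay 23.3 kb before it (19867351 to 19868700) and 38.3 kb after it (19934551 to 19936400).

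Another locus of 6 regions lay on chromosome 11 (69360151 to 69762550) and spanned 402.4 kb. Its short regions had 950, 1050 and 1050 bp, beside others of 1650, 2800 and 4000 bp. Loci of 5 regions lay on chromosome 8 (123010301 to 123261100), chromosome 12 (114166201 to 114395550) and chromosome 13 (55430351 to 55638500). Their spans were 250.8, 229.35 and 208.15 kb. The chromosome 8 locus opened with 4000 and 4450 bp, followed by 1900, 1250 and 1800 bp. The chromosome 13 locus was more even, with lengths from 1400 to 2200 bp.

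Loci of 4 regions numbered 5. The widest spanned 404.0 kb of chromosome 2 (130120701 to 130524700). Another on chromosome 11 (120458001 to 120813050) spanned 355.05 kb. On chromosome 5 (125341501 to 125622350) the span was 280.85 kb. The narrower ones spanned 222.55 kb of chromosome 9 (119266351 to 119488900) and 175.75 kb of chromosome 4 (137220401 to 137396150). Together the 12 loci with 4 or more regions held 62 of the 254 clustered regions, or 24.4%. Most loci were small: 60 were pairs and 24 held 3 regions.

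**Figure D1:**
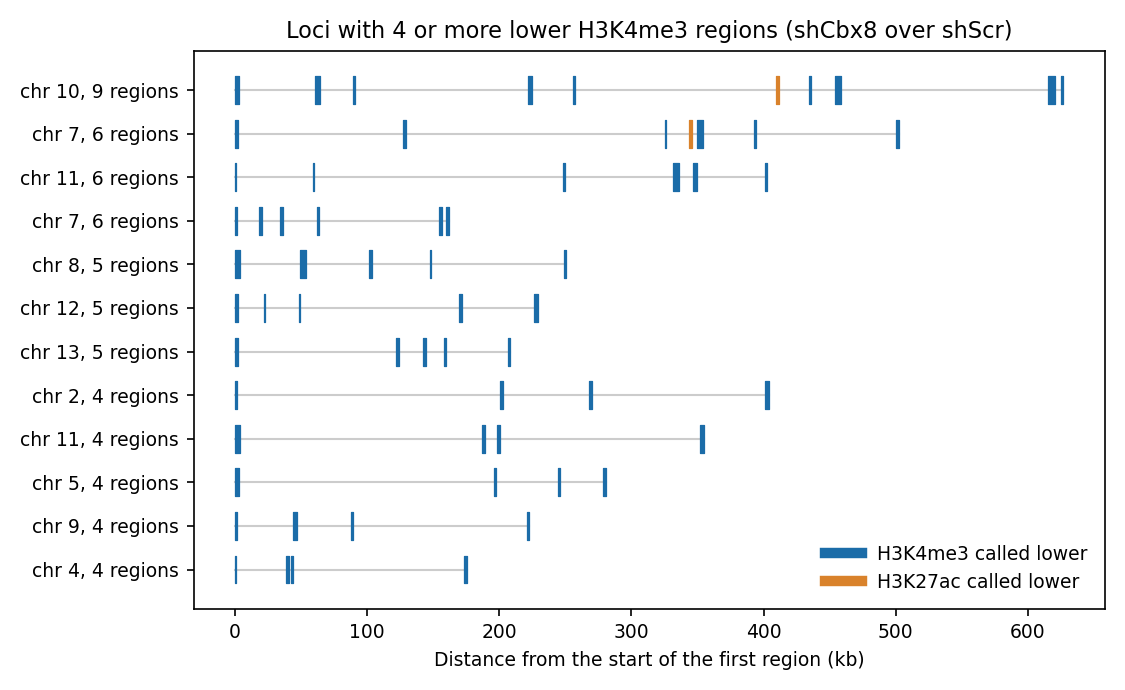
Map of the 12 loci with 4 or more lower H3K4me3 regions in shCbx8 over shScr MMTV-Myc cells, with the distance from the start of the first region on the x axis in kb. Blue bars are lower H3K4me3 regions and orange bars lower H3K27ac regions, drawn to scale with a thin outline; an orange bar falls inside the span of the 9-region locus of chromosome 10 and of the wider 6-region locus of chromosome 7.

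Loci spanned 5.25 to 626.8 kb, with a median of 118.975 kb. They added up to 13.4695 Mb, of which 3.96% lay inside lower H3K4me3 regions. After the chromosome 10 locus, the highest summed lengths were 15.2 kb in the wider chromosome 7 locus, 13.4 kb in the chromosome 8 locus of 5, 12.85 kb in a chromosome 5 locus of 3 and 12.15 kb in the compact chromosome 7 locus. Listed regions thus made up little of each of these spans, from 3.02 to 7.5%.

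Of the 158 gaps between neighbours in a locus, the median was 66.775 kb (quartiles 33.7375 and 128.5125 kb). Gaps of at most 20 kb made up 16.5% of them, and gaps of at most 50 kb made up 39.9%. Over all 681 pairs of neighbours in the lower list, which include these 158, the median gap was 980.85 kb. The rule caps gaps within loci at 200 kb, so their smaller median follows from the rule. The share of the list that counts as clustered climbed without a step at 200 kb as the limit was raised. The gaps just inside the limit were 199.2 kb on chromosome 2, 197.2 kb on chromosome 11 and 195.55 kb on chromosome 7. Just outside were 204.45 kb on chromosome 12, 206.65 kb on chromosome 15 and 209.2 kb on chromosome 8. The chromosome 12 gap divides the 5-region locus from a region of another locus (113959901 to 113961750).

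**Figure D2:**
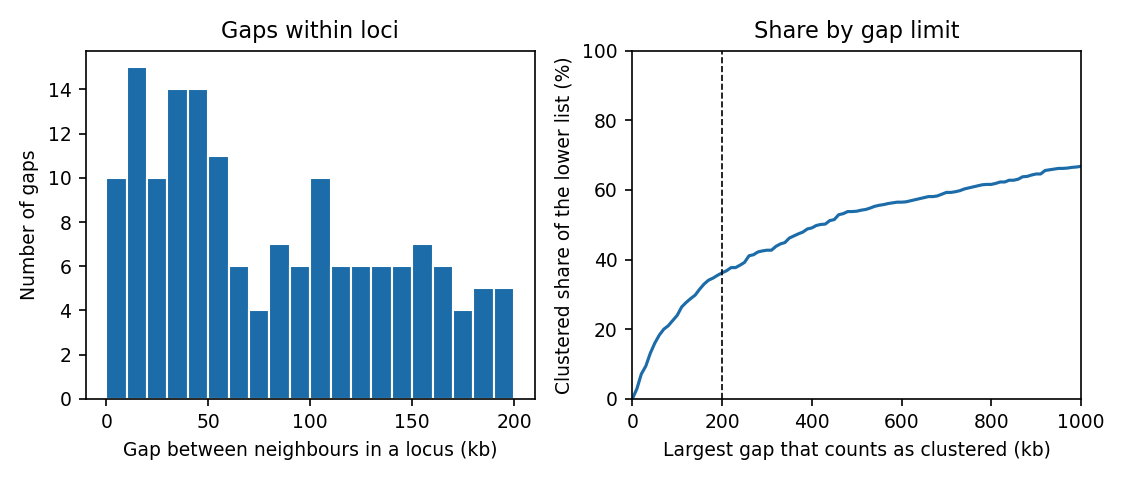
Left, the number of gaps between neighbouring lower H3K4me3 regions of a locus by gap size in kb (158 gaps, bins of 10 kb). Right, the share of the 701 lower regions that count as clustered (%) against the largest gap allowed in kb; the dashed line is the 200 kb limit used here, at 36.2%, and the curve rises smoothly through it.

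A few neighbours lay within some kb of each other. The smallest gap was 700 bp on chromosome 17, between regions of equal length (26337501 to 26338850 and 26339551 to 26340900). Gaps of 1950 bp on chromosome 4 (137261150 to 137263101), 2100 bp on chromosome 3 (133899600 to 133901701), 2200 bp on chromosome 11 (98563350 to 98565551) and 2550 bp on chromosome 7 (148403450 to 148406001) followed. The chromosome 3 pair was the most compact locus of the set, 5.25 kb in all. In total 7 gaps were at most 5 kb. Joining the regions on either side of them left 245 clustered regions in 94 loci, against 254 and 96 with regions as listed.

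Clustered and isolated regions had the same median length, 1850 bp (quartiles 1500 and 2600 bp for the 254 clustered regions, 1325 and 2400 bp for the 447 isolated regions). At 3 kb and over, their shares were 13.8% of clustered and 13.6% of isolated regions. The 5 longest regions of the whole lower list were all clustered. The longest, 7.85 kb on chromosome 5 (116009101 to 116016950), stood in a locus of 3 beside regions of 2.4 kb (115992101 to 115994500) and 2.6 kb (116180801 to 116183400). The next 5 longest were all isolated. At 5 kb and over there were 5 clustered and 3 isolated regions, counts too small to set the sets apart.

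Regions within some loci differed widely in length. No such ratio was taken for regions from different loci, so the spread is not shown to be particular to the loci. Within a locus, the longest region was at least 2 times the shortest in 38 of the 96 loci. The median ratio of longest to shortest was 1.62 and the highest 7.57. In loci of 4 or more the median region had 2125 bp, against 1850 bp in pairs and 1750 bp in loci of 3.

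Clustered regions were found on 19 of the 20 chromosomes of the list. Chromosome 2 held 37, chromosome 4 held 33, chromosomes 7 and 11 held 29 each and chromosome 8 held 23. These 5 chromosomes carried 151 of the 254 clustered regions, or 59.4%, and 43.8% of the whole lower list. The clustered share of a chromosome's lower regions was highest on chromosome 8 (54.8% of 42) and chromosome 2 (53.6% of 69). On chromosome 1 it was 16.7% of 36 and on chromosome 6 12.9% of 31. Chromosome 18 had 13 lower regions and 0 clustered. These chromosomes were picked for their counts. The number of listed regions differs between chromosomes, from 12 to 74, and the density of promoters was not measured, so their part in these shares was not tested.

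**Figure D3:**
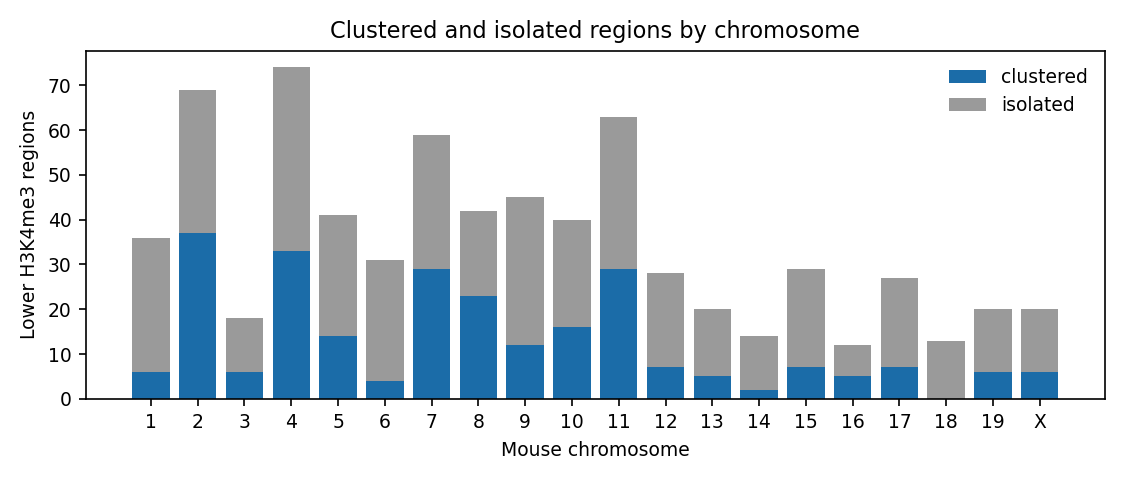
Number of lower H3K4me3 regions on each mouse chromosome, with clustered regions in blue at the base of each bar and isolated regions in grey above. Chromosomes 2 and 8 have more clustered than isolated regions, and chromosome 18 has 13 isolated regions and no clustered one.

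The H3K27ac libraries were separate from those that chose the regions, but came from MMTV-Myc cells with the same hairpins. H3K27ac was called lower within 200 kb of 39 of the 254 clustered regions, or 15.4% (95% exact interval 11.2 to 20.4%). The same held for 26 of the 447 isolated regions, or 5.82% (3.83 to 8.41%), and for 9.27% of all 701 lower H3K4me3 regions. The intervals cover counting over regions only. With 1 library per condition the gap was not tested, and regions of a locus share the same neighbours: the 39 regions stood in 18 of the 96 loci and near 21 lower H3K27ac regions.

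Counted per length of sequence, the neighbourhoods of the 96 loci (each locus widened by 200 kb on both sides, 51.01 Mb) held 21 lower H3K27ac regions, or 0.412 per Mb. The neighbourhoods of isolated regions (176.2 Mb) held 28, or 0.159 per Mb. The whole span of the mouse lists (2475 Mb, up to the last listed region of each chromosome) held 166, or 0.0671 per Mb. The density of promoters was not measured, so its part in these rates and in the shares near H3K27ac was not tested. The share near lower H3K27ac was higher among clustered than isolated regions on each of the 8 chromosomes with at least 10 clustered regions. On chromosomes 4, 5, 9 and 10 all clustered regions counted as near belonged to a single locus per chromosome, so they are not separate cases. Chromosome 8 showed the smallest difference, 17.4% of 23 clustered against 15.8% of 19 isolated regions. On the 11 chromosomes with fewer clustered regions, 61 in all, it was higher on 2, lower on 7 and equal on 2. Within 200 kb the share was 15.0% of regions in pairs, 16.7% in loci of 3 and 14.5% in loci of 4 or more, which stood in 9 of 60, 6 of 24 and 3 of 12 loci. Within 50 kb the shares were 4.17, 5.56 and 9.68% in the same order, and within 500 kb 20.0, 31.9 and 30.6%. The order of the locus sizes thus changed with the distance, and the counts behind the 50 kb shares were 5, 4 and 6 regions.

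Lower H3K27ac lay inside the span of 8 loci. In a pair on chromosome 1 it covered the whole of the first H3K4me3 region (93354801 to 93356700) and ran from 93354351 to 93356900. The other region of that pair (93390851 to 93392600) had a further lower H3K27ac region 43.1 kb beyond it (93435701 to 93438250). In a pair on chromosome 2, lower H3K27ac (154393301 to 154399600) covered the whole second region (154393601 to 154397150), while the first (154232701 to 154234400) lay 158.9 kb away. Only these 2 clustered regions overlapped lower H3K27ac, 0.787% of 254, beside 2 of 447 isolated regions and 0.571% of all 701.

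In the other 6 loci lower H3K27ac lay between H3K4me3 regions. On chromosome 2 (28372051 to 28374350) it lay 1.65 kb after the first of 3 regions (28368351 to 28370400). In the 6-region locus of chromosome 7 it lay at 19885651 to 19887750, 4.25 kb before the longest region. A locus of 3 on chromosome 4 held 2 lower H3K27ac regions (141620951 to 141623050 and 141626251 to 141628000), 15.6 and 10.65 kb before its middle region (141638651 to 141641400). In the 9-region locus of chromosome 10 it lay inside the widest gap (79575951 to 79578100), 22.85 kb before the next H3K4me3 region. Pairs on chromosome 9 (108164101 to 108165750) and chromosome 7 (30197401 to 30198400) had it 26.3 and 38.3 kb from the nearer region. Apart from the overlaps on chromosomes 1 and 2, the 2 marks were thus called lower at separate places in these loci. The other 78 of 96 loci had no lower H3K27ac region within 200 kb, among them the compact 6-region locus of chromosome 7, the 6-region locus of chromosome 11 and the 3 loci of 5 regions.

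H3K27me3 was called lower within 200 kb of 1 of the 254 clustered regions, or 0.394% (95% exact interval 0.00997 to 2.17%). The figure was 6 of 447 isolated regions, or 1.34% (0.494 to 2.9%), and 0.999% of all 701. The intervals overlap, and these counts do not set clustered and isolated regions apart. The single case was a pair on chromosome 11, singled out after its value was seen. Its first region (94382301 to 94383250) lay 164.45 kb from a lower H3K27me3 region (94213601 to 94217850). The neighbourhoods of the loci held 1 lower H3K27me3 region (0.0196 per Mb) and those of isolated regions 5 (0.0284 per Mb). Over the whole span there were 63 (0.0255 per Mb). With so few regions these rates do not set the sets apart. Lower H3K27me3 overlapped 0 of 254 clustered regions, for which the exact 95% interval reaches 1.44%.

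**Figure D4:**
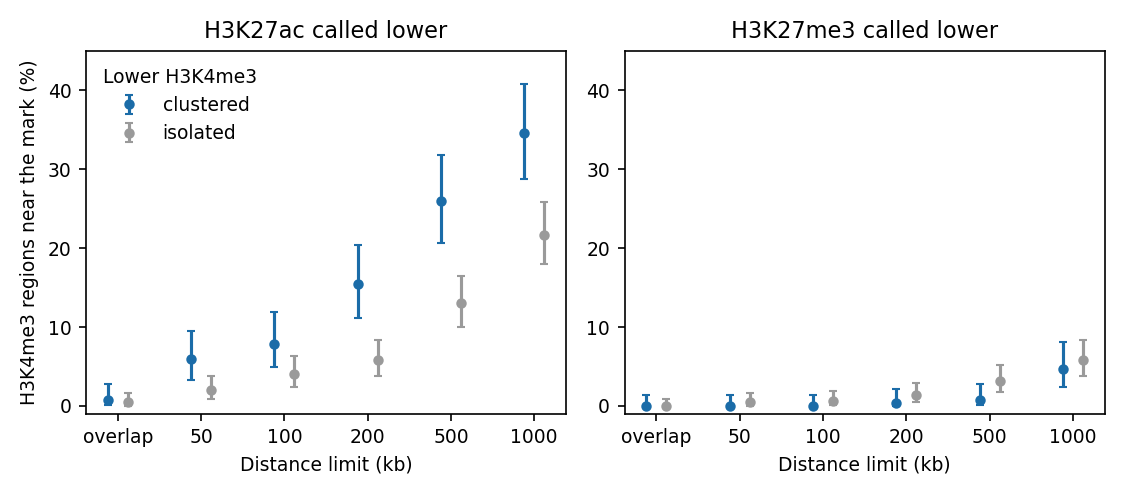
Share (%) of 254 clustered (blue) and 447 isolated (grey) lower H3K4me3 regions that had a lower H3K27ac (left) or lower H3K27me3 (right) region within the distance on the x axis in kb, with exact 95% intervals over regions. For H3K27ac the clustered share lies above the isolated share at each distance, 15.4% against 5.82% at 200 kb. The H3K27ac intervals of the sets overlap for direct overlap, 50 kb and 100 kb, and do not overlap from 200 kb on. They treat regions of a locus as separate, though the 39 clustered regions near H3K27ac at 200 kb stood in 18 loci. They are thus too narrow, and no difference between the sets was tested. For H3K27me3 both shares stay low and their intervals overlap.

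Regions called higher were rarer still around the loci. Higher H3K4me3, listed at 18 places, was near 0 of 254 clustered and 1 of 447 isolated regions, 0.143% of all 701. The one nearest to a clustered region (115346701 to 115350100) lay 642.0 kb from the chromosome 5 locus that holds the longest region. Higher H3K27ac, listed at 16 places, was near 0 clustered and 2 isolated regions, 0.285% of all 701. It came no closer than 521.75 kb to a clustered region. Of the 2 higher H3K27me3 regions, the nearer lay 607.75 kb from a clustered region on chromosome 2. At these background shares under 1 clustered region would be near either list, so the counts of 0 show no difference.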

How the data were processed

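Values are positions only: the deposited lists have 3 columns (chromosome, start, end in bp), made by the authors, with no value per region. The submitters' processing notes name SICER, MACS2 2.1.0, Bowtie 1.0.0 and FastQC 0.10.0, and mm9 for mouse. The caller of changed regions, any use of input and any scaling were not stated in the sources used here. The names of the mouse lists give a q-value of 1e-08 and a fold of 1.8 as thresholds. Those of the human lists give a looser q-value and no fold. Starts lay on a grid of 50 bp and ends 1 bp below it, so starts were read as counted from 0 with the end included; printed positions count from 1.

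Python 3.11.15, pandas 2.3.3, numpy 2.4.6, scipy 1.17.1 (exact Clopper-Pearson intervals) and matplotlib 3.10.9 were used. A gap is the number of bases between regions, and loci are chains of gaps of at most 200 kb. The code was tested on simulated data. Named loci were those with at least 4 regions, the 5 smallest gaps, the 5 highest summed lengths and those with another mark inside their span. Members, limits and rules were chosen with earlier results of these data known. Overlap with gene starts was not run, as no annotation of mm9 was used. Alternatives covered the gap, the distance called near, merging, length and chromosomes.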

Additional observations from a re-analysis of the deposited data

How the results depend on the processing

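Of 49 alternative values, counts were judged by a range of 1.5 times, shares by the exact interval of the value used and median lengths by the 50 bp grid. By these limits 32 of the 49 stayed the same and 17 moved. The clustered regions numbered 112 in 49 loci with a gap limit of 50 kb, 168 with 100 kb, and 87 in 35 loci among regions no shorter than the median, as fewer gaps or regions qualify. Clustered minus isolated median length, 0 bp, became 100 bp with a limit of 500 kb and 200 bp among the longer regions. The share of clustered regions near lower H3K27ac was 5.91% within 50 kb, 34.6% within 1000 kb and 0.787% by overlap, in each case above the isolated share (2.01, 21.7 and 0.447%). It exceeded the isolated share in all 13 alternatives run. These reuse the same regions and lists, so their agreement is not independent support. By overlap the counts were 2 of 254 clustered and 2 of 447 isolated regions, and within 50 kb the intervals of the sets overlapped. Of the 13, 4 were chosen after seeing the data. The share was 14.3% without the 9-region locus, 14.1% without the 6-region locus of chromosome 7 that adds most and 13.8% without chromosome 2. With loci as units, which are wider than single regions, it was 18.8%. The share near lower H3K27me3 was 0% with gap limits of 50 and 100 kb, among longer regions, within 50 kb and by overlap, and 4.72% within 1000 kb (5.82% of isolated regions). The share near higher H3K4me3, 0% against 0.224% of isolated regions within 200 kb, became 2.36% against 1.34% within 1000 kb. This turns the order of the sets on 6 regions each, and the 6 clustered regions stood in only 2 loci. No paired analysis was possible because each condition had 1 library. A stricter fold or q-value could not be applied, since the lists hold neither.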

Other observations

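The gap rule took 36.2% of the lower mouse H3K4me3 list. Its shares in the other lists are given as values with no test, since the lists differ in length. Of the 166 lower H3K27ac regions 17 were clustered (10.2%, 8 loci of at most 3 regions), and of the 63 lower H3K27me3 regions 0 were. The human MDA-MB-231-Luc lists, called after CBX8 knockdown, had 34.6% of 1241 lower H3K4me3 regions clustered, with up to 35 in a locus. Of their 2611 higher regions 45.2% were clustered. Their names give a looser q-value than those of the mouse lists and no fold, so the human and mouse shares are not directly comparable. Higher mouse H3K4me3 had 7 of its 18 regions (38.9%) clustered in 3 loci, the largest with 3 regions within 60.55 kb of chromosome 19 (34657551 to 34718100).

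Of the 8 loci of lower H3K27ac, 3 lay within 200 kb of a clustered lower H3K4me3 region: at chromosome 1 (93354351 to 93438250, overlapping), chromosome 4 (141620951 to 141628000, 10.65 kb away) and chromosome 11 (115881001 to 116064400, 132.15 kb away). Another 3 lay within 200 kb of an isolated lower H3K4me3 region: at chromosome 2 (173088351 to 173093850, 5.9 kb away), chromosome 6 (29416651 to 29506600, 4.15 kb away) and chromosome 17 (46821751 to 46989050, 59.65 kb away). A further pair on chromosome 2 (162823751 to 162883450) was 1454.15 kb from any lower H3K4me3 region. The pair on chromosome 19 (41588001 to 41743150) was 3962.0 kb from any lower H3K4me3 region.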
